A study of Mus musculus with 8 samples.

Results

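Frizzled proteins are the cell-surface receptors for Wnt ligands. A secreted Wnt binds the cysteine-rich domain outside the cell, the receptor recruits a Dishevelled protein inside it, and together with the co-receptors Lrp5 or Lrp6 this keeps beta-catenin from being destroyed; without those co-receptors Frizzleds also serve planar cell polarity, the alignment of cells and axons within a tissue. By sequence the mouse genes fall into the groups Fzd1, Fzd2 and Fzd7; Fzd4, Fzd9 and Fzd10; Fzd5 and Fzd8; and Fzd3 and Fzd6. All 10 Frizzled genes (Fzd1 to Fzd10) were taken by symbol from the 24060 rows of the expression tables. All 10 passed the filter on low values, which 15605 genes passed.

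The values come from the cortex of 4 mice at P80 (postnatal day 80). Every animal carried Aldh1l1-creERT2 on 1 allele (hemi) and the Ribotag allele (het), so that a tamoxifen-inducible Cre driven by Aldh1l1 regulatory sequence switches on a ribosomal protein with a hemagglutinin (HA) tag, mainly in astrocytes. For each animal there is a library of RNA precipitated with the tagged ribosomes (HA IP, n = 4) and a library of RNA from the cleared lysate of the same cortex (input, n = 4); the animals are numbered 579, 580, 581 and 595, and males and females are not told apart in the labels. There was no untagged or Cre-negative animal among these libraries, and both groups carry the same alleles. HA IP differs from input in the cells sampled and in ribosome binding, and these cannot be told apart; nor can fewer cells of a type and less RNA per cell.

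Values are given on the deposited scale as FPKM, fragments scaled by the length of the gene and the size of the library. Fold changes are log2 ratios of HA IP over input from limma, on log2(FPKM + 0.1) after scaling by trimmed mean of M-values (TMM), with their standard error (SE) and a Benjamini-Hochberg adjusted p over all 15605 genes. The TMM scaling raised HA IP over input by 0.84 on the log2 scale; without it the median of all genes was -0.75 in place of 0.01. For each Frizzled gene the fold change without it is therefore printed beside the scaled one. Fold changes of other genes are after TMM scaling unless stated, and lie lower without it. Libraries held 33834388 to 53625125 fragments, and the Frizzled genes had 50 to 12057 fragments per library.

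The labelled cell type was checked with marker lists. All 12 astrocyte markers were higher in HA IP, by 2.97 (Aqp4) to 5.11 (Aldoc) on the log2 scale, and Aldh1l1 itself stood at 406 ± 26.2 FPKM in HA IP, against 21.8 ± 0.926 FPKM in input (SD, n = 4 each). All 12 neuron markers were lower, with log2 fold changes of -4.41 (Gad2) to -2.35 (Rbfox3). The lists for oligodendrocytes (8 of 8), their precursors (5 of 5) and microglia (8 of 8) were lower throughout, and 9 of 10 endothelial markers were. Other lists were mixed: 1 mural marker was higher, 3 were lower and 4 did not pass, with the same counts for fibroblasts and meninges. Of 6 ependymal and choroid plexus markers 2 were higher and 2 lower, and of 5 progenitor and immature neuron markers 2 were higher and 3 lower.

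Of the 10 Frizzled genes, 9 were higher in HA IP and 1, Fzd3, was lower, at an adjusted p under 0.05 in limma. Among all genes tested 42.1% were higher and 41.1% lower, 83.2% in all. The median log2 fold change of the family was 1.92, beside 0.01 for all genes. On the deposited scale 8 members were higher, 1 was lower and 1, Fzd6, did not pass, beside 23.3% of all genes higher and 61.6% lower, 84.9% in all, and the medians were 1.19 for the family and -0.75 for all genes. Fzd2, Fzd9 and Fzd10, the members with the largest rises, lay within the range of the 12 astrocyte markers. Fzd10, at 3.14 (95% interval 2.62 to 3.66), was near the lower end of that range, 2.97 for Aqp4. The other risers lay below the range, and Fzd3 lay between it and the neuron markers. An exact permutation test swapped libraries without regard to their pairing by animal. It gave each member a two-sided unadjusted p of 0.0286, the smallest that 4 against 4 unpaired libraries allow. The share of all genes at this value is not given, so it does not set the family apart.

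**Figure D1:**
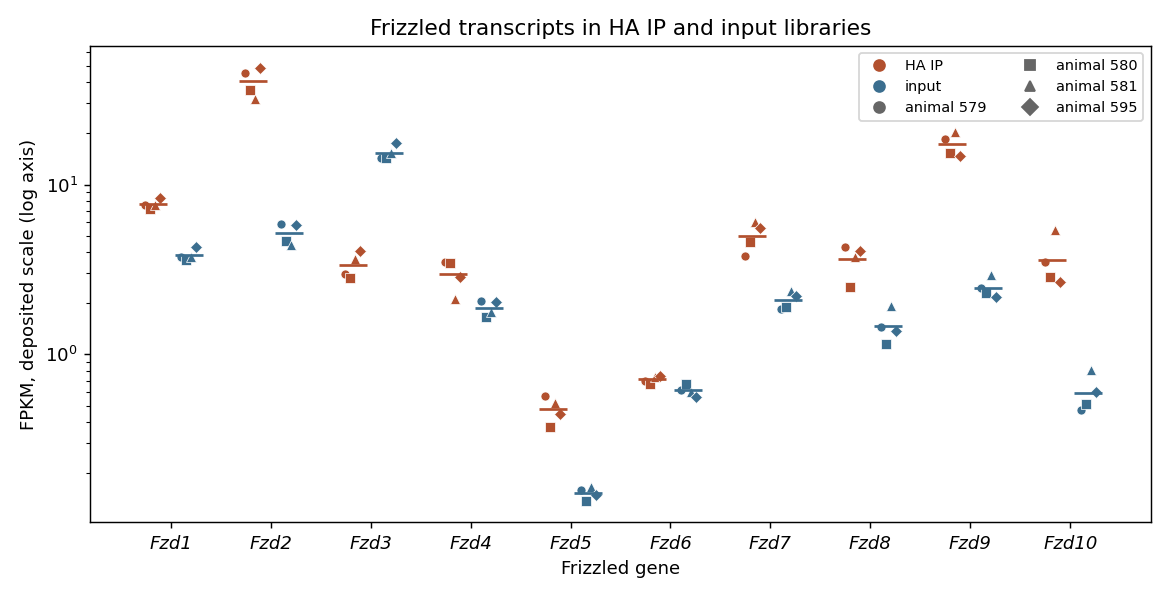
Level of each Frizzled gene in FPKM on the deposited scale (log axis) in 4 HA IP libraries (red, left) and 4 input libraries (blue, right), with marker shapes for the animals and bars for group means. Fzd2 at 32.0 to 48.8 FPKM leads in HA IP, whereas Fzd3 at 14.3 to 17.7 FPKM leads in input.

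In the group of Fzd1, Fzd2 and Fzd7, all members rose, Fzd2 by far the most. Fzd2, which can signal through beta-catenin and through Wnt5a-type polarity pathways, stood at 45.1, 36.0, 32.0 and 48.8 FPKM in HA IP of animals 579, 580, 581 and 595, against 5.88, 4.66, 4.39 and 5.81 FPKM in their inputs. Each HA IP library was far above every input, and animal 581 had the lowest level in both groups. The log2 fold change was 3.76 (SE 0.15; limma, adjusted p = 6.8e-09), a 14.0-fold ratio of the scaled means, and 2.93 on the deposited scale. The gene lies on chromosome 11 (GRCm38 102604431 to 102608058).

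Fzd1, its near relative, had 7.59, 7.19, 7.57 and 8.33 FPKM in HA IP of the same animals, against 3.73, 3.57, 3.72 and 4.29 FPKM in input. Animal 595 was highest in both groups, and the groups did not overlap. The change was 1.81 (SE 0.09; limma, adjusted p = 2.8e-08), or 0.99 on the deposited scale, with the smallest standard error of the family. Fzd7, the Wnt receptor of intestinal stem cells, had 3.81, 4.56, 6.01 and 5.53 FPKM in HA IP, against 1.85, 1.90, 2.35 and 2.21 FPKM in input. Here animal 581 was highest and animal 579 lowest in both groups, and the groups did not overlap. Fzd7 changed by 2.02 (SE 0.15; limma, adjusted p = 5.2e-07), or by 1.21 on the deposited scale.

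The group of Fzd4, Fzd9 and Fzd10 rose too, but unevenly. Fzd9, which in humans lies in the region deleted in Williams syndrome, had 18.4, 15.3, 20.4 and 14.8 FPKM in HA IP, against 2.46, 2.30, 2.95 and 2.17 FPKM in input. The lowest HA IP value was several times the highest input, and animal 581 was highest in both groups. The log2 fold change was 3.57 (SE 0.13; limma, adjusted p = 3.3e-09), or 2.75 on the deposited scale. The gene lies on chromosome 5 (GRCm38 135248938 to 135251047).

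Fzd10, the closest relative of Fzd9, had 3.51, 2.85, 5.43 and 2.65 FPKM in HA IP, against 0.470, 0.511, 0.806 and 0.599 FPKM in input. Animal 581 was again highest in both groups, and the other animals lay close together. The change was 3.14 (SE 0.23; limma, adjusted p = 5.6e-07), or 2.38 on the deposited scale, with the widest standard error of the family. With a pseudocount of 1 it was 1.98. The log2 ratio within an animal was lowest for 595 (2.68) and highest for 579 (3.44). The input libraries held 50, 54, 89 and 96 Fzd10 fragments. Fzd10 lies on chromosome 5 as well (GRCm38 128601106 to 128604093).

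Fzd4 is the receptor of Norrin (gene Ndp) as well as of Wnts, and is best known from retinal and brain blood vessels, where it acts with Lrp5 and the tetraspanin Tspan12. It had 3.51, 3.43, 2.11 and 2.86 FPKM in HA IP, against 2.05, 1.66, 1.77 and 2.03 FPKM in input. The groups came close but did not overlap, and animal 581 was the lowest in HA IP. Fzd4 changed by 1.42 (SE 0.18; limma, adjusted p = 3.3e-05), or by 0.62 (adjusted p = 0.0061) on the deposited scale. Log2 ratios within animals, lowest for 581 (1.02) and highest for 580 (1.86), spread about as widely as those of Fzd10. Fzd4 overlaps the gene Tmem135 by 338 bases in RefSeq. Tmem135 stood at 18.8 ± 1.41 FPKM in HA IP, against 17.5 ± 0.687 FPKM in input; the strand setting of the counting is not given in the sources used here, and whether reads of Tmem135 entered the Fzd4 value was not tested.

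Endothelial markers went the other way from Fzd4. Of 10 endothelial markers 9 fell and 1, Kdr, did not pass at -0.50 (SE 0.42), and their median was -1.95 on the log2 scale. Their summed level was 3.22 to 4.55 FPKM in HA IP, against 21.0 to 29.6 FPKM in input, and none was at 0 in all HA IP libraries. On the deposited scale all 10 markers were called lower, with Kdr at -1.22 (limma, adjusted p = 0.018). Kdr was also called lower without animal 595 (0.037) and without its HA IP library (0.027). Cldn5, a gene of endothelial tight junctions, stood at 1.09 ± 0.515 FPKM in HA IP, against 8.52 ± 1.96 FPKM in input. What endothelial RNA contributes to the Fzd4 level was not tested.

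The sequence before the start of these related genes is shown because Fzd9 and Fzd10 rose together and Fzd4 much less. Each line holds the 250 bases before the annotated start (RefSeq, GRCm38.p6), in lower case, with matches in capitals to a GC box (GGGCGG), an E-box (CACGTG), a SOX core (AACAAT) or a TCF/LEF core (CTTTGAT) on either strand. Fzd9 is at chr5:135251048-135251297 (minus strand), Fzd10 at chr5:128600856-128601105 (plus strand) and Fzd4 at chr7:89404116-89404365 (plus strand).
Fzd9: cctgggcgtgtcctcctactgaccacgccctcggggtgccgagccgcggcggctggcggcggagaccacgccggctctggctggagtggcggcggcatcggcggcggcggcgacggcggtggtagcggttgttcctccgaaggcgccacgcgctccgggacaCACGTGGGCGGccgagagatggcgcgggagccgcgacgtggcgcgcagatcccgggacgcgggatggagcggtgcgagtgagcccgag
Fzd10: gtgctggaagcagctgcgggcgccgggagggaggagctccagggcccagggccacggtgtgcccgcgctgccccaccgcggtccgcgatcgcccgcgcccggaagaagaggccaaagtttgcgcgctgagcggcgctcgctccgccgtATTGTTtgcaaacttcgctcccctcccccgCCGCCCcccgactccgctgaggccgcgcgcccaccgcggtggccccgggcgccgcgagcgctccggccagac
Fzd4: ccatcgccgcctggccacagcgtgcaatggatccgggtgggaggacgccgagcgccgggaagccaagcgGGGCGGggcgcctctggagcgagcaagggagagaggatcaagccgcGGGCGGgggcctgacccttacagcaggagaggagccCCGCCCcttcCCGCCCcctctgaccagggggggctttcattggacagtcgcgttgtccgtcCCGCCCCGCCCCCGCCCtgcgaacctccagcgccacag

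The printed Fzd4 stretch lies within the RefSeq span of Tmem135. Fzd4 had 7 GC box matches, some adjoining or sharing a base, beside 1 in Fzd9 and 1 in Fzd10. Fzd5 had 9 and Fzd7 had 6. The match in Fzd9 shares a base with its E-box, which was the only E-box match among the 6 members with a promoter entry (Fzd1, Fzd4, Fzd5, Fzd7, Fzd9 and Fzd10). Fzd10 alone of these 6 held a SOX core. None of the 6 held the TCF/LEF core, and Fzd1 held no match at all. Of all 32851 promoters in the table, 32.7% held the GC box, 6.02% the E-box, 9.42% the SOX core and 3.21% the TCF/LEF core. G and C made up 76.4% of the bases in Fzd9 and Fzd10 and 72.8% in Fzd4, beside a median of 52.4% over all promoters. Whether these sequences or matches bear on the fold changes was not tested.

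Fzd5 and Fzd8 both rose. Fzd8, the closest relative of Fzd5, had 4.28, 2.51, 3.73 and 4.06 FPKM in HA IP, against 1.45, 1.15, 1.92 and 1.38 FPKM in input. Animal 580 was lowest in both groups, and the groups did not overlap. The change was 2.05 (SE 0.19; limma, adjusted p = 3.4e-06), or 1.24 on the deposited scale.

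Fzd5, needed in the mouse embryo for yolk sac vessels, had 0.567, 0.373, 0.521 and 0.444 FPKM in HA IP, against 0.160, 0.138, 0.166 and 0.148 FPKM in input. These were the lowest values of the family in either group, and animal 580 was again lowest in both. Fzd5 changed by 1.77 (SE 0.15; limma, adjusted p = 1.3e-06), or by 1.18 on the deposited scale. With input levels near the pseudocount of 0.1, the size of this value depends on the pseudocount: it was 2.37 with 0.01 and 0.55 with 1, and the ratio of the scaled means was 5.59-fold. The length behind its FPKM was 13717 bases, 1.91 times the whole 7193-base span of the gene in RefSeq, whereas in 6 members (Fzd1, Fzd2, Fzd7, Fzd8, Fzd9 and Fzd10) the length was 1 base under the span. With the span as its length, Fzd5 would average 0.908 FPKM in HA IP, against 0.292 FPKM in input. The lengths used for Fzd3, Fzd4 and Fzd6 were shorter than their spans, which hold introns, and were not checked further.

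Fzd3 and Fzd6, which act together in planar polarity and neural tube closure, had the lowest fold changes of the family, and Fzd3 alone fell. Fzd3 also guides axons in the forebrain, where mice without it lack major tracts. It had 2.98, 2.81, 3.66 and 4.07 FPKM in HA IP, against 14.4, 14.3, 15.3 and 17.7 FPKM in input. Every HA IP library was far below every input, and animal 595 was highest in both groups. The log2 fold change was -1.33 (SE 0.12; limma, adjusted p = 2.9e-06), and -2.16 on the deposited scale. Log2 ratios within animals lay between -1.43 and -1.22. Fzd3 lies on chromosome 14 (GRCm38 65192441 to 65262463).

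The fall of Fzd3 was smaller than that of each of the 12 neuron markers. Those 12 summed to 105 to 133 FPKM in HA IP, against 2524 to 2740 FPKM in input, their median was -3.51 on the log2 scale, and none was at 0 in all HA IP libraries. What RNA from neurons contributes to the Fzd3 level in HA IP was not tested.

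Fzd6 had 0.696, 0.672, 0.735 and 0.750 FPKM in HA IP, against 0.617, 0.672, 0.604 and 0.565 FPKM in input. The groups touched in animal 580, where HA IP and input were equal at the precision printed. After TMM scaling Fzd6 rose by 0.92 (SE 0.12; limma, adjusted p = 3.4e-05), the smallest rise of the family, or by 0.42 with a pseudocount of 1. On the deposited scale it had 0.19 (SE 0.12; adjusted p = 0.15) and did not pass; with upper-quartile scaling it rose by 0.55 (adjusted p = 0.0015).

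**Figure D2:**
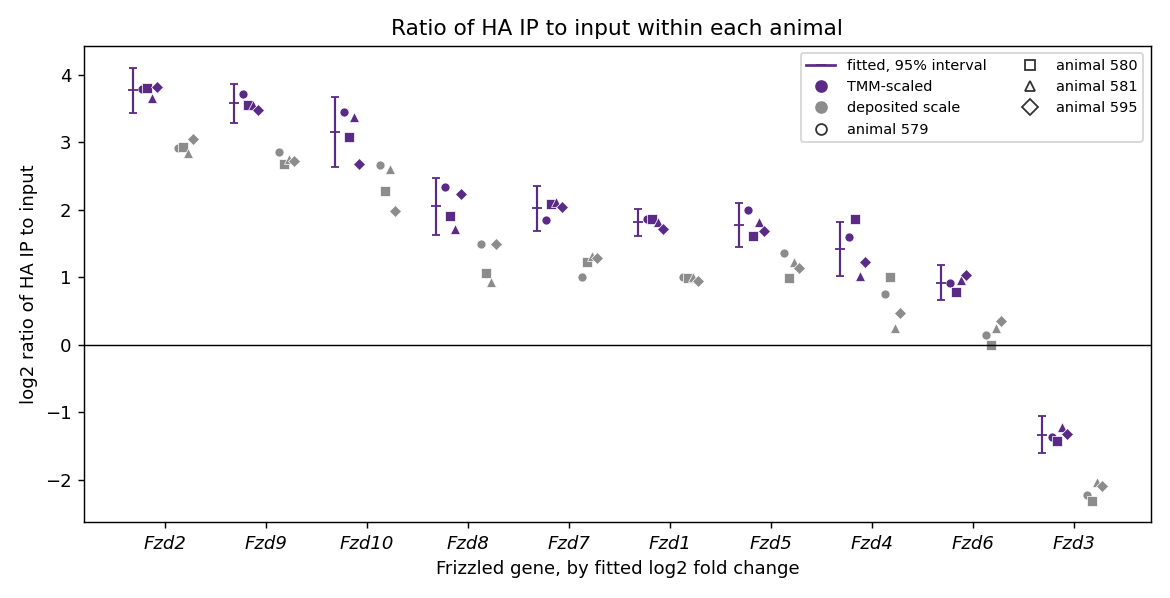
Log2 ratio of HA IP to input within each animal for each Frizzled gene, ordered by fitted fold change, with purple points after TMM scaling, grey points on the deposited scale and purple bars for the limma estimate with its 95% interval. Fzd2, Fzd9 and Fzd10 stand above the rest, Fzd6 reaches 0 on the deposited scale in animal 580, and Fzd3 is below 0 in every animal on either scale.

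The composition of the Frizzled pool differed between the groups. Summed over the 10 genes, the level was 85.1 ± 7.69 FPKM in HA IP, against 33.7 ± 2.48 FPKM in input (SD, n = 4 each). Fzd2 made up 47.3 ± 5.98% of the sum in HA IP and 15.4 ± 2.01% in input, and Fzd9 made up 20.4 ± 3.58% in HA IP and 7.37 ± 1.16% in input. Those genes together came to 67.7 ± 2.79% in HA IP and 22.8 ± 1.71% in input. Fzd3 showed the reverse order, with 3.97 ± 0.565% of the sum in HA IP and 45.7 ± 1.89% in input. Fzd1 and Fzd7 had shares of 9.03 ± 0.471% and 5.89 ± 1.28% in HA IP beside 11.4 ± 0.308% and 6.17 ± 0.556% in input. Shares of Fzd2, Fzd9 and Fzd10 were higher in every HA IP library than in any input, those of Fzd1, Fzd3, Fzd4 and Fzd6 were lower, and those of Fzd5, Fzd7 and Fzd8 overlapped. The shares are set within a library and do not depend on the scaling between libraries. They do depend on the lengths used, which were not checked for Fzd3, Fzd4 and Fzd6.

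**Figure D3:**
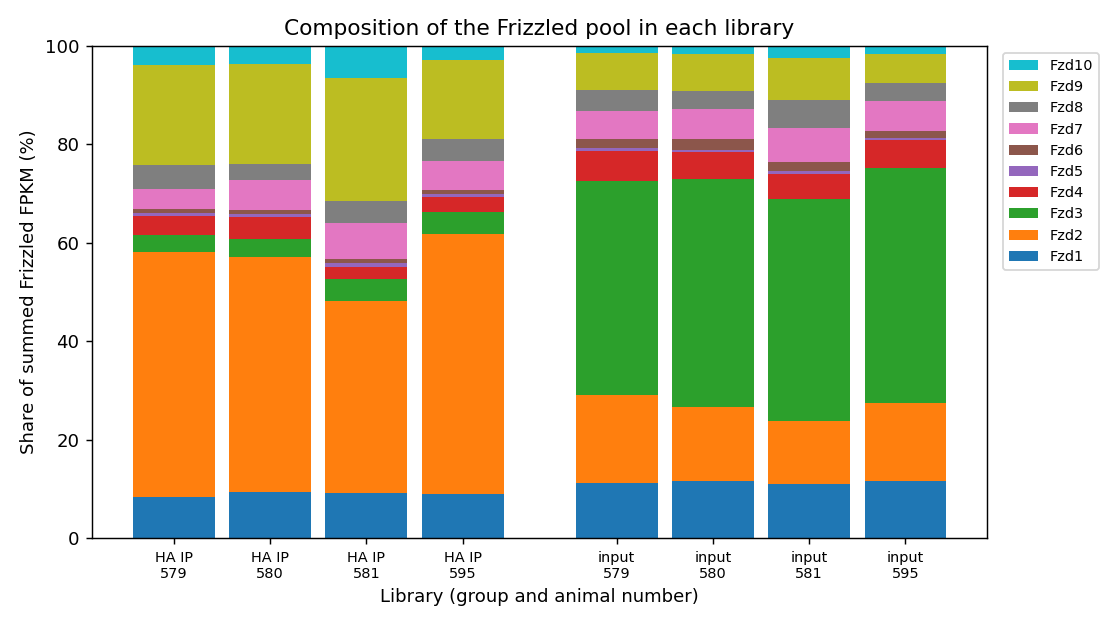
Share of each gene in the summed Frizzled FPKM of each library (percent, stacked to 100), with HA IP libraries on the left and input libraries on the right. Fzd2 and Fzd9 fill 67.7% on average in HA IP, and Fzd3 alone fills 45.7% in input.

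By level per length the order in HA IP was Fzd2, Fzd9, Fzd1 and Fzd7, of which each pair of neighbours was separate in all 4 libraries. Fzd7, Fzd8, Fzd10, Fzd3 and Fzd4 followed with neighbouring ranges that overlapped, so their order is not fixed by these libraries. Fzd6 and Fzd5 came last, and Fzd5 would stand above Fzd6 with the RefSeq span as its length. The places of Fzd3, Fzd4 and Fzd6 in either group rest on lengths that were not checked. In input the order was Fzd3, Fzd2, Fzd1 and Fzd9, again with separate ranges. Fzd9, Fzd7, Fzd4 and Fzd8 overlapped with their neighbours there, as did Fzd6 and Fzd10, and Fzd5 was lowest.

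Animals differed in the mix as well. Animal 581 had the lowest Fzd2 and the highest Fzd9, Fzd10 and Fzd7 in both of its libraries. In its HA IP library Fzd2 made up 38.9% of the Frizzled sum, and Fzd9 24.8%. In the HA IP library of animal 595 Fzd2 made up 52.8% and Fzd9 16.1%. With 4 animals, whose sex the labels do not give one by one, no test of this difference was made.

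The genes most like a member over the 8 libraries were ranked for the members with the highest and the lowest fold change. For Fzd2 they were Tpp1 (Pearson r = 0.9996), a lysosomal peptidase gene, Cdc37 (0.9995), an Hsp90 co-chaperone gene, and Emx2 (0.9993), a homeobox gene of the developing cortex. Cdc37 stood at 43.6 ± 1.69 FPKM in HA IP, against 48.6 ± 0.842 FPKM in input, so that it was higher in HA IP only after scaling, by 0.68. Tpp1 stood at 41.1 ± 4.08 FPKM in HA IP, against 16.0 ± 0.974 FPKM in input. Emx2 stood at 39.1 ± 5.54 FPKM in HA IP, against 4.91 ± 0.679 FPKM in input. For Fzd3 they were Tpp2 (0.9987), a cytosolic peptidase gene, Tab3 (0.9978), a kinase adaptor gene of the NF-kappa B pathway, and Prlr (0.9975), the prolactin receptor gene. The points form 2 clusters, HA IP and input, so r mostly reflects that step, and 996 tested genes reached over 0.99 with Fzd2 and 149 with Fzd3.

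For the Wnt pathway lists that follow, the shares over all genes were 42.1% higher and 41.1% lower after TMM scaling, and 23.3% higher and 61.6% lower without it. Of 20 ligand genes (the Wnts and Ndp) 16 were tested, 4 were called higher, 9 lower and 3 neither (median log2 fold change -1.11). Without TMM scaling, 3 were called higher and 10 lower. Wnt7a had the largest rise, at 38.4, 32.4, 27.4 and 28.9 FPKM in HA IP, against 4.22, 2.91, 2.91 and 3.50 FPKM in input, a change of 4.03 (SE 0.15). All HA IP values lay far above all inputs. Its relative Wnt7b, with which it drives brain vessel growth in the embryo, rose by 2.59 (SE 0.16). Ndp, the Norrin gene whose product binds Fzd4, stood at 20.1 ± 4.34 FPKM in HA IP, against 4.31 ± 0.488 FPKM in input and rose by 3.01 (SE 0.15). Wnt10a fell most, by 3.53 on the log2 scale (SE 0.34). Wnt5a, a ligand of polarity signalling, had -0.44 (SE 0.18; limma, adjusted p = 0.046), a call that was lost on leaving out any of 6 libraries, all but the HA IP of animal 595 and the input of animal 581, with log2 fold changes of -0.43 to -0.37 and adjusted p from 0.083 to 0.12. On the deposited scale Wnt5a had -1.18 (adjusted p = 0.00018).

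Wnt ligands need a lipid, added by the acyltransferase Porcn, and the carrier Wls to leave the cell. Wls rose by 1.70 (SE 0.07). Porcn had 0.40 (SE 0.08), which turned to -0.43, called lower, on the deposited scale.

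Among co-receptors and receptor partners, 8 of 13 tested were called higher, 1 lower and 4 neither (median log2 fold change 1.35). Without TMM scaling, 7 were called higher and 5 lower. The beta-catenin co-receptors came apart. Lrp5 had 7.70, 6.25, 8.54 and 7.10 FPKM in HA IP against 2.08, 1.93, 2.09 and 1.78 FPKM in input, and rose by 2.67 (SE 0.11). Lrp6 had 0.31 (SE 0.10, limma, adjusted p = 0.018), which turned to -0.52 on the deposited scale, where it was called lower. It did not pass with upper-quartile scaling (-0.10, limma, adjusted p = 0.38) or without the input library of animal 579 (adjusted p = 0.057). Nor did it pass without animal 579 (adjusted p = 0.099) or animal 595 (adjusted p = 0.0502). The Norrin partner Tspan12 rose by 2.56 (SE 0.13), so that Fzd4, Lrp5, Tspan12 and Ndp were all higher in HA IP on both scales.

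Other partners rose as well. Ryk, an atypical Wnt receptor, rose by 2.36 (SE 0.08) and the polarity co-receptor Ptk7 by 1.35 (SE 0.15). Smo, the Hedgehog transducer that shares the Frizzled fold, rose the most of this list, by 2.82 (SE 0.09). The Wnt5a co-receptor genes Ror1 and Ror2 had -0.36 (SE 0.26) and 0.17 (SE 0.29) and did not pass. On the deposited scale Ror1 was called lower. The same held with upper-quartile scaling (-0.60, limma, adjusted p = 0.049) and without the HA IP library of animal 595 (0.031). Musk, the receptor kinase of the neuromuscular junction, was the member that fell, with -0.31 (SE 0.13, limma, adjusted p = 0.044). Its level was 0.0140 ± 0.00925 FPKM in HA IP, against 0.0624 ± 0.00970 FPKM in input. Both lie under the pseudocount of 0.1, on which the size of the change depends, and the ratio of the scaled means was 0.40. The call was lost with the animal as a block (adjusted p = 0.0805) and with a pseudocount of 1 (0.18). It was also lost on leaving out any of 7 libraries, all but the HA IP of animal 595 (0.055 to 0.11). Without that library 3 genes of the list were called lower.

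R-spondins keep Frizzleds at the membrane by drawing away the ubiquitin ligases Znrf3 and Rnf43 through Lgr receptors. Of 8 tested genes of this axis 3 were called higher, 3 lower and 2 neither (median log2 fold change -0.48). Without TMM scaling, 3 were called higher and 5 lower. The receptor genes divided: Lgr6 rose by 2.65 (SE 0.38) and Lgr4 by 2.05 (SE 0.09), while Lgr5 fell by 1.80 on the log2 scale (SE 0.18). Znrf3 rose by 1.41 (SE 0.20), and Rnf43 had -0.51 (SE 0.22, limma, adjusted p = 0.055) and did not pass. Rnf43 was called lower with upper-quartile scaling (-0.83, adjusted p = 0.0059), a pseudocount of 1 (0.043) and no intensity trend (0.048). The same held without animal 580 (0.044), without its input library (0.033) and without the HA IP library of animal 595 (0.034). Rspo2 fell by 3.05 on the log2 scale (SE 0.31), and Rspo3 had -0.45 (SE 0.24) and did not pass. On the deposited scale Rnf43 and Rspo3 were called lower. Rspo3 was also called lower with upper-quartile scaling (-0.86, limma, adjusted p = 0.0074) and without animal 581 (0.019) or its input library (0.015).

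Secreted and membrane inhibitors went both ways. Of 17 tested 6 were called higher, 9 lower and 2 neither (median log2 fold change -0.82). Without TMM scaling, 5 were called higher and 10 lower. Sfrp5 and Sfrp1, decoys that carry a Frizzled-type Wnt-binding domain, rose by 4.10 (SE 0.31) and 3.34 (SE 0.44). Sfrp1 varied between animals, at 25.2 ± 13.8 FPKM in HA IP, against 3.79 ± 0.964 FPKM in input. Dkk3, which unlike other Dickkopf proteins is not a clear Lrp inhibitor, rose by 1.69 (SE 0.12), and Dkkl1 fell by 3.47 on the log2 scale (SE 0.11).

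The Dishevelled and destruction complex list acts inside the cell, and of its 23 genes 6 were called higher, 15 lower and 2 neither (median log2 fold change -0.47). Without TMM scaling, 3 were called higher and 18 lower. The Dishevelled genes, which relay the Frizzled signal, had -0.56 (SE 0.10) for Dvl1, 0.57 (SE 0.09) for Dvl2 and -0.27 (SE 0.11) for Dvl3. Dvl2 was called lower on the deposited scale, at -0.26, and the call for Dvl3 (limma, adjusted p = 0.040) was lost on leaving out any of 6 libraries, all but the HA IP of animals 579 and 595, with log2 fold changes of -0.29 to -0.19 and adjusted p from 0.058 to 0.11; on the deposited scale Dvl3 had -1.10 (adjusted p = 7.5e-06). Ctnnb1, the beta-catenin gene, stood at 64.4 ± 3.74 FPKM in HA IP, against 51.9 ± 3.15 FPKM in input and rose by 1.15 (SE 0.08), or by 0.31 on the deposited scale. Nkd1, a Dishevelled antagonist, rose most with 2.08 (SE 0.10), and the casein kinase gene Csnk1g1 fell most, by 1.83 on the log2 scale (SE 0.19).

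Of 15 TCF/LEF factors and co-factors 10 were called higher, 2 lower and 3 neither (median log2 fold change 1.05). Without TMM scaling, 8 were called higher and 6 lower. Tcf7l1, mostly a repressor, rose by 3.54 (SE 0.14), Tcf7l2 by 2.69 (SE 0.14) and Lef1 by 1.84 (SE 0.14). Bcl9, a co-activator of beta-catenin, had the largest fall, -0.99 (SE 0.11). Of 12 genes widely used as beta-catenin targets, 8 of which also stand in other lists here, 9 were called higher, 1 lower and 2 neither (median log2 fold change 1.26). Without TMM scaling, 7 were called higher and 2 lower. Tnfrsf19 rose most, by 3.12 (SE 0.13). Axin2, the target most often used as a readout, stood at 8.77 ± 1.24 FPKM in HA IP, against 7.24 ± 0.438 FPKM in input and rose by 1.10 (SE 0.11), or by 0.26 (adjusted p = 0.042) on the deposited scale. Lgr5 was the target that fell.

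The planar polarity list, the pathway in which Fzd3 and Fzd6 are best known, divided. Of 16 genes 7 were called higher, 4 lower and 5 neither (median log2 fold change 0.23). Without TMM scaling, 5 were called higher and 9 lower. The Celsr genes, cadherins that bridge neighbouring cells, differed most. Celsr1 rose by 3.53 (SE 0.12), and Celsr2 had -0.14 (SE 0.11) and did not pass. Celsr2 was called lower on the deposited scale (-0.98) and with upper-quartile scaling (-0.56, limma, adjusted p = 0.0011). Celsr3, the partner of Fzd3 in axon tracts, fell by 2.72 on the log2 scale (SE 0.23). Celsr3 stood at 0.700 ± 0.338 FPKM in HA IP, against 8.48 ± 0.561 FPKM in input. Vangl2, the membrane protein opposite Frizzled in polarised cells, rose by 1.69 (SE 0.10), and the formin gene Daam2 rose by 3.42 (SE 0.18).

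**Figure D4:**
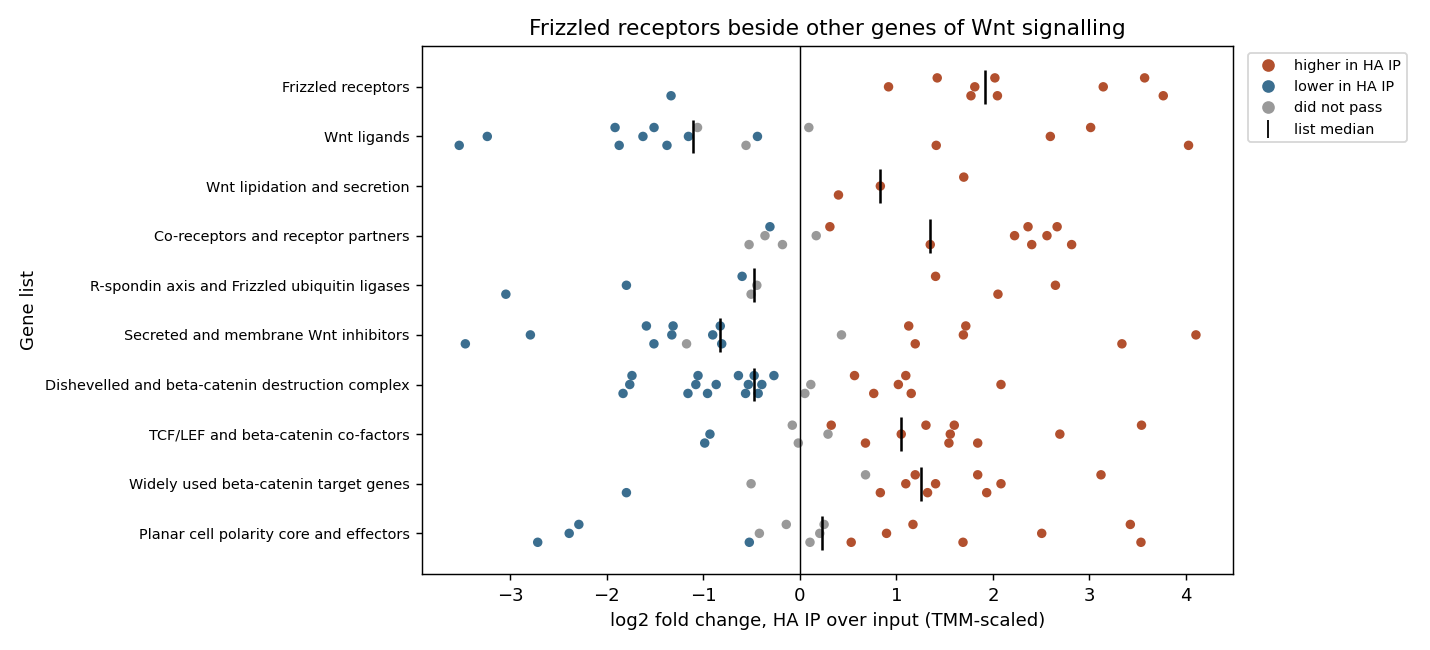
Log2 fold change of HA IP over input after TMM scaling for each tested gene of the Frizzled family and of 9 lists of Wnt signalling genes (points, coloured by call, spread vertically for legibility), with a bar at each median. The Frizzled median is 1.92 and that of the ligands -1.11, and every list but lipidation and secretion holds genes called in both directions.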

How the data were processed

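Per the labels' protocols, paired-end stranded libraries with mRNA enrichment were made from 100 ng of HA IP or input RNA. Software listed in the submitters' processing notes comprises STAR, HTSeq and bcl2fastq 2.17, with the build mm10; other versions, annotation and strand setting were not given in the sources used here. The values are FPKM as deposited by the authors. No label or header names the unit: all 142235 values above 0 came within 0.001 of whole fragments with 1 whole length per gene and 1 whole total per library, with lengths chosen to meet this. Recovered fragments served only for depth, lengths and the filter (at least 0.246 CPM in 4 libraries and 15 fragments in all).

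TMM factors used trims of 0.3 and 0.05, no weights and all genes. The fits used limma 3.58.1 in R 4.3.3, with an intensity trend and no covariates. P-values were two-sided, and the threshold was an adjusted p of 0.05. The fit was also run on simulated data in which far fewer genes changed than were called here. That run could not test the TMM scaling under so broad a difference. SciPy 1.17.1 gave the exact tests. Libraries of 1 animal share its number, and their deviations from group means correlated at 0.22 to 0.40, against at most 0.11 for other pairs. The members and lists were chosen with earlier results of these data known. Named genes are all members, preset genes of each list, and its highest and lowest called member. Promoters are RefSeq's for GRCm38.p6. The alternatives tried are listed with their effect.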

Additional observations from a re-analysis of the deposited data

How the results depend on the processing

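Each member was recomputed under 21 alternatives: 2 other scalings, 2 pseudocounts, 2 filters, the animal as a replicate block, no intensity trend, 12 fits without an animal or a library, and the exact test. Of 210 values 209 kept direction and call. The exception was Fzd6 without TMM scaling, at 0.19. The other filters, the block and the fit without a trend leave the fold change as it was, so only the call could move there. The exact test, which ignored the pairing by animal, was read at its unadjusted p of 0.0286, its smallest possible value. Sizes moved more than calls: with a pseudocount of 1 in place of 0.1, Fzd5 had 0.55 in place of 1.77, Fzd6 0.42 in place of 0.92 and Fzd10 1.98 in place of 3.14; with 0.01, Fzd5 had 2.37. Without TMM scaling the number of genes higher was 3643 in place of 6573. With the replicate block Fzd2 kept 3.76 (adjusted p = 8.8e-09) and Fzd3 -1.33 (1.3e-06), the counts over all genes were 6727 higher and 6579 lower, and no call of a Frizzled gene changed. Leaving out animals or libraries moved Fzd2 between 3.68 and 3.88, Fzd3 between -1.41 and -1.26, Fzd4 between 1.28 and 1.58 and Fzd10 between 2.94 and 3.30. RefSeq spans were also used as lengths, except for Fzd3, Fzd4 and Fzd6. The share of Fzd5 was then 1.06% in HA IP and 0.865% in input, in place of 0.559% and 0.455%. Of 360 counts for the Wnt lists 32 moved by over 1.5 times or to or from 0, 12 of them under another scaling. Most of the other moves were in the count of co-receptors called lower. That count was 1, for Musk alone, and mostly went to 0. The causes of the moves were not tested. Fzd5 and Fzd10 in input rest on 50 to 109 fragments per library, which limits their precision.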
